A study of Homo sapiens with 8 samples.

Results

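The 35 genes described here belong to the integrated stress response and the unfolded protein response, 2 linked programs by which a cell answers protein-folding and nutrient stress. They were taken as named sets: 3 sensors of the endoplasmic reticulum (ATF6, ERN1 and EIF2AK3), 16 genes of the ATF4 arm and 16 genes of the ER chaperone arm. Each of the 35 symbols was found once among the 46427 genes listed for NCI-H1944 and once among the 61271 listed for NCI-H647. RNA sequencing had been done on these established human lung cancer cell lines, each labelled wild type (WT), in 8 libraries. Cells received BAY-1217389, an inhibitor of the mitotic kinase MPS1 (MPS1i), at 100 nM, or its solvent DMSO, for 48 h, and were collected 24 h after the drug was washed out. Each line had 2 DMSO and 2 MPS1i libraries, and in such bulk RNA fewer expressing cells and less RNA per cell cannot be told apart.

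When unfolded protein accumulates in the endoplasmic reticulum (ER), the membrane sensors ATF6, IRE1 (gene ERN1) and PERK (gene EIF2AK3) are activated. ATF6 and XBP1, the factor whose mRNA IRE1 splices, switch on chaperones, disulfide isomerases and the machinery that removes misfolded proteins. PERK shares its substrate, the translation factor eIF2, with the kinases PKR, GCN2 and HRI, which sense double-stranded RNA, amino acid shortage and haem or mitochondrial stress, and eIF2 phosphorylation lowers protein synthesis while favouring translation of ATF4. ATF4 then induces amino acid synthesis and transport genes, the factor CHOP (gene DDIT3) and the feedback phosphatase subunit GADD34 (gene PPP1R15A). Gene counts show neither the splicing of XBP1 nor the translation of ATF4, and say nothing of phosphorylation.

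The NCI-H1944 libraries were poly(A)-selected stranded libraries, and the NCI-H647 libraries were stranded libraries depleted of ribosomal RNA and converted for an MGI sequencer, so line and library kit cannot be told apart. Libraries of NCI-H1944 held 38904473 to 43661342 counts. Those of NCI-H647 were shallower, at 13358514 to 19550859, and low genes are less precise there. Replicates differed by more than counting noise in all 4 groups (chi-square over its degrees of freedom, 1.98 to 3.93). The labels do not say that replicates were separate cultures, so p-values cover only the spread of these libraries, which could be technical. Keratins 7, 8 and 18 were expressed in both lines, whereas KRT19 and the lung lineage factor NKX2-1 had 0 counts in every NCI-H1944 library and CDH1 had 3 to 9 counts in the NCI-H647 libraries. Of 9 leukocyte and erythroid markers, PTPRC was at 0 in all 8 libraries. The summed level of these 9, held mostly by CD68, went from 72.4 to 75.1 CPM (counts scaled to equal library totals) after DMSO to 167 to 171 after MPS1i in NCI-H1944, where 4 of 5 tested rose. In NCI-H647 it went from 149 to 150 CPM to 226 to 228, where 2 of 2 tested rose. Of 8 fibroblast and endothelial markers, 4 of 4 tested rose in NCI-H1944, where their sum went from 30.3 to 34.1 CPM to 47.7 to 48.1. In NCI-H647 3 of 5 fell, and the sum went from 61.5 to 67.3 CPM to 49.7 to 53.7. Of 6 epithelial markers, 5 were tested in each line. In NCI-H647 KRT7, KRT8 and KRT18 fell (-0.70, -0.41 and -0.30) and 1 other rose (0.35). In NCI-H1944 KRT8 and KRT18 rose (0.29 and 0.19) and 0 fell. Of 5 squamous markers, 3 were tested in each line. In NCI-H1944 1 rose (2.45) and 0 fell, with a sum of only 2.54 to 3.02 CPM after DMSO. In NCI-H647 0 were called. The part of these marker changes in the results was not tested.

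The DNA that carries the ER chaperone arm's best known control sequence is shown first, since it does not depend on the expression values. The ER stress response element consists of the letters CCAAT and CCACG separated by 9 bases. It was searched on both strands of RefSeq promoter windows (GRCh38.p14, 250 bases before to 50 bases after a gene's start), which were given for 32 of the 35 genes. It was present in 22 of 27305 windows (0.0806%). Of 15 ER chaperone arm windows 5 held it, against 0 of 14 of the ATF4 arm and 0 of 3 of the sensors. In the matches below, written on the strand that reads CCAAT first, capitals mark the fixed letters.

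HSPA5, 66 bases before the start: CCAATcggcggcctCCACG

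HSP90B1, 194 bases before: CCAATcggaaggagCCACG

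HSP90B1, 89 bases before, opposite strand: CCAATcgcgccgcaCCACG

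XBP1, 52 bases before: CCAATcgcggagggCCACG

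CALR, 225 bases before, opposite strand: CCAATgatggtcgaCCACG

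CRELD2, 80 bases before, opposite strand: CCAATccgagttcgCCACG

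The upstream DNA of 3 of these genes follows, with the element in capitals, each read 5′ to 3′ on the gene's strand and ending at the base before the RefSeq start. HSPA5 (chr9:125241344-125241493, minus strand) encodes BiP, the main ER chaperone, and XBP1 (chr22:28800570-28800719, minus strand) encodes the spliced factor. HSP90B1 (chr12:103930160-103930409, plus strand) encodes the ER chaperone GRP94 and carries 2 copies, the nearer of which reads on the opposite strand.

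HSPA5: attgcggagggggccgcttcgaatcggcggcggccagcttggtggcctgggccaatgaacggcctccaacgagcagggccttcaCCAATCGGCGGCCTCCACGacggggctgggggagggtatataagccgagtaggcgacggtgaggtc

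XBP1: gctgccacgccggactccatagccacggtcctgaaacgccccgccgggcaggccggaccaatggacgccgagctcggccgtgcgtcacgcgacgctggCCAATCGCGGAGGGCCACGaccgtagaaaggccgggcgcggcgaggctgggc

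HSP90B1: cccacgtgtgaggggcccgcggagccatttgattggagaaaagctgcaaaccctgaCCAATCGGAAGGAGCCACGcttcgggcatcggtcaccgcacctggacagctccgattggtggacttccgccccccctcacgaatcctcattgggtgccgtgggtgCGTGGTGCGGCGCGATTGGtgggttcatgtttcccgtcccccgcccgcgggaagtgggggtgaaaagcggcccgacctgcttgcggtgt

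A C/EBP-ATF response element was searched only as TGATGNAAT (both strands), with the last base fixed as T. It was present in 1.02% of windows and in none of the 32. The ASNS window holds tgatgaaac. Those of CHAC1 and HERPUD1 hold gttgcatca and that of SLC3A2 holds cttacatca, which read on the opposite strand. Each differs from the searched letters only in that last base, and windows with other last bases were not counted. The UPR element (TGACGTGG, both strands) was present in 0.795% and, of the 32, in that of HYOU1. A match is a description of letters in a window, and the absence of one says only that these letters are not there. Of the 22 genes with an ER stress response element, 15 were tested in each line. In NCI-H1944 5 rose and 2 fell, where 13.6% and 12.4% of all tested genes did. In NCI-H647 8 rose and 2 fell, where 27.3% and 27% of all tested genes did. The carriers did not move together: HSPA5 rose by 0.08 and 0.46 on the log2 scale in NCI-H1944 and NCI-H647, whereas CALR rose by 0.35 in NCI-H1944 and was at -0.08 (adjusted p = 0.161) in NCI-H647.

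Every change below is a log2 fold change of MPS1i over DMSO ± the standard error of the fit, with n = 2 libraries per group, and levels are CPM scaled by library size and TMM factor. "Rose" and "fell" are used where edgeR's quasi-likelihood test, adjusted over all genes of the line, fell below 0.05. In NCI-H1944, 13.6% of the 16738 tested genes rose and 12.4% fell, and the median of all genes was 0.00. Of the 35 stress response genes, all tested there, 11 rose, 13 fell and 11 did neither. In NCI-H647, 27.3% of the 15049 tested genes rose and 27% fell, around a median of 0.01 on the log2 scale. Of the 34 stress response genes tested there, 21 rose, 6 fell and 7 did neither. NUPR1, a small stress-induced chromatin protein, was not tested in NCI-H647, where it had 0 and 1 counts with DMSO and 0 and 3 with MPS1i.

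High genes pass such a test more easily, and most of these genes are high. Among genes whose mean log2 CPM was 5 or more, 19.9% rose and 23.3% fell in NCI-H1944. All 16 ATF4 arm genes were at that level there, of which 4 rose and 11 fell, and 14 of 16 ER chaperone arm genes were, of which 7 rose and 1 fell. In NCI-H647, 32.5% of genes at that level rose and 39.3% fell. There 11 of 15 ATF4 arm genes reached it, with 4 higher and 6 lower, and 14 of 16 ER chaperone arm genes, with 11 higher and 0 lower. The arms thus differed in direction in NCI-H1944, where the ATF4 arm mostly fell and the ER arm mostly rose or did not pass, and in NCI-H647 the ATF4 arm was split while no ER arm gene passed as lower. The changes in NCI-H1944 were small: against a minimum fold of 1.5, 0 arm genes passed there in either direction. Without the filter on low counts, the NCI-H1944 calls of CHAC1, DDIT4, HSPA5, HSP90B1, CEBPG, NUPR1 and SEL1L were lost.

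**Figure D1:**
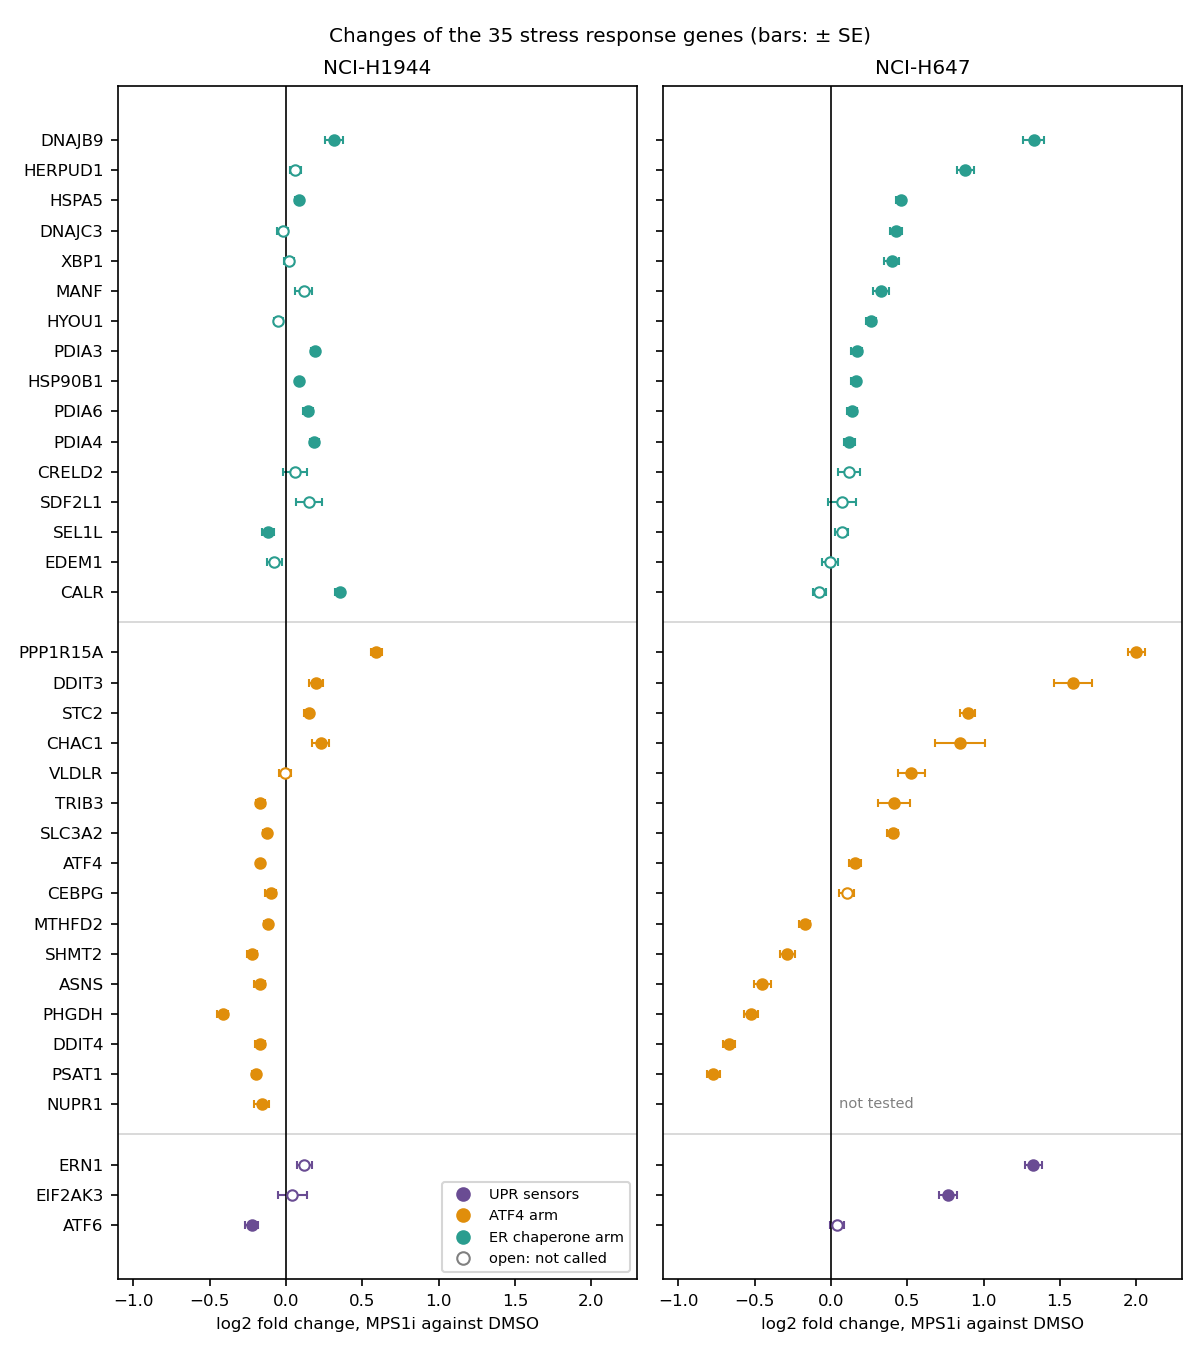
Log2 fold change of MPS1i over DMSO (horizontal axis) for each stress response gene, grouped as sensors, ATF4 arm and ER chaperone arm, in NCI-H1944 and NCI-H647. Bars are standard errors of the fit with 2 libraries per group and filled points passed the test. In NCI-H1944 all changes but that of PPP1R15A, at 0.59, lie within 0.5 of 0, and in NCI-H647 they run from -0.77 for PSAT1 to 2.0 for PPP1R15A.

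Among the sensors, the response differed between the lines. Gene positions are given on GRCh38 as the NCI-H647 table lists them. ERN1 (chr17:64039080-64130819), which encodes the kinase and RNase IRE1, stood at 26.9 and 28.7 CPM after DMSO and 71.0 and 68.3 after MPS1i in NCI-H647. The MPS1i libraries lay apart from the DMSO libraries, a rise of 1.33 ± 0.05 (2.51-fold, adjusted p = 2.4e-11). In NCI-H1944 ERN1 was at 52.1 and 50 CPM after DMSO and 54.6 and 56.4 after MPS1i, and its change of 0.12 ± 0.05 missed the threshold (adjusted p = 0.0828), but passed with the filter of 1 CPM in 2 libraries (adjusted p = 0.0473).

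EIF2AK3, encoding PERK, was at 33.4 and 30.7 CPM after DMSO and 55.9 and 53.5 after MPS1i in NCI-H647, a rise of 0.77 ± 0.06 (adjusted p = 2.3e-08). In NCI-H1944 its 4 libraries overlapped, at 21.8 and 19.1 CPM after DMSO and 22.9 and 19.1 after MPS1i (0.04 ± 0.09, adjusted p = 0.802). ATF6, the sensor that is cleaved in the Golgi to release a transcription factor, fell in NCI-H1944 from 111 and 106 CPM to 95.5 and 90.4 (-0.23 ± 0.04, adjusted p = 0.00068). In NCI-H647 it was at 132 and 126 CPM after DMSO and 130 and 135 after MPS1i, with groups that overlapped (0.04 ± 0.05, adjusted p = 0.518). The difference between the lines, taken from a joint fit and so not exactly the difference of the separate values, passed the interaction test for all 3 sensors. It was 1.18 ± 0.09 for ERN1 (adjusted p = 2.25e-10), 0.70 ± 0.12 for EIF2AK3 (adjusted p = 4.28e-05) and 0.24 ± 0.06 for ATF6 (adjusted p = 0.00249).

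In the ATF4 arm of NCI-H1944, 4 of 16 genes rose and 11 fell, with a median log2 change of -0.14. In NCI-H647, 8 of 15 tested rose and 6 fell, with a median of 0.16. Changes spanned -0.42 to 0.59 in NCI-H1944 and -0.77 to 2.0 in NCI-H647, so that the same arm held the largest rises and the deepest falls of the 35 genes in NCI-H647.

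The mRNA of ATF4 itself (chr22:39519695-39522683), the transcription factor at the head of the arm, changed in opposite directions and by little. In NCI-H1944 it was at 1001 and 1013 CPM after DMSO and 883 and 909 after MPS1i, a fall with no overlap between the groups (-0.17 ± 0.02, adjusted p = 3.94e-05). In NCI-H647 the values were 325 and 306 CPM after DMSO and 347 and 357 after MPS1i, also without overlap (0.16 ± 0.04, adjusted p = 0.00269). The rise in NCI-H647 did not pass without the second MPS1i library. The difference between the lines was 0.30 ± 0.05 (adjusted p = 3.03e-05).

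PPP1R15A (chr19:48872421-48876058), whose product GADD34 directs dephosphorylation of eIF2 and so closes the loop, rose most of the 35 in both lines. In NCI-H647 it went from 23.5 and 25.1 CPM to 97.9 and 96.3, a 4.0-fold rise (2.0 ± 0.06, adjusted p = 3.02e-13). In NCI-H1944 it went from 109 in both DMSO libraries to 163 and 165 CPM, a 1.51-fold rise (0.59 ± 0.04, adjusted p = 2.36e-09). The treated libraries were close to each other in both lines and far above the controls. The rise was larger in NCI-H647 by 1.39 ± 0.06 on the log2 scale (adjusted p = 8.36e-14).

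DDIT3 (chr12:57516588-57521737), encoding the pro-apoptotic factor CHOP, was at 5.53 and 6.55 CPM after DMSO and 19 and 17.1 after MPS1i in NCI-H647, a 3.0-fold rise (1.59 ± 0.12, adjusted p = 4.46e-08). In NCI-H1944 it went from 58.7 and 57.4 to 67.4 and 65.6 CPM, a 1.15-fold rise (0.20 ± 0.05, adjusted p = 0.0039). Neither line showed overlap between the groups. The gene lies antisense to MARS1 and MBD6, which in NCI-H647 held 1133% and 273% of its counts, and the strand setting of the counting is not given in the sources used here, so reads of these genes may be mixed. MARS1 changed by 0.05 ± 0.05 in NCI-H647 (adjusted p = 0.338) and 0.03 ± 0.03 in NCI-H1944 (adjusted p = 0.572). MBD6 was at -0.00 (adjusted p = 0.971) in NCI-H647 and fell by 0.19 in NCI-H1944.

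STC2, a secreted glycoprotein induced by ER stress, and CHAC1, a glutathione-degrading enzyme downstream of ATF4 and CHOP, also rose in both lines. STC2 went from 75.5 and 72.8 CPM to 137 and 139 in NCI-H647 (0.90 ± 0.05, adjusted p = 6.71e-10) and from 326 and 323 to 353 and 365 in NCI-H1944 (0.15 ± 0.03, adjusted p = 0.00154). CHAC1 was at 4.07 and 4.42 CPM after DMSO and 7.04 and 8.19 after MPS1i in NCI-H647 (0.84 ± 0.16, adjusted p = 0.000494). In NCI-H1944 it was at 39.4 and 41.3 and then 45.4 and 49.1 CPM (0.23 ± 0.06, adjusted p = 0.00654). In each case both treated libraries were above both controls. The CHAC1 call in NCI-H1944 was lost without the second MPS1i library.

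The serine, folate and asparagine enzymes of the arm fell in both lines, unlike the enzyme CHAC1. PHGDH and PSAT1 catalyse serine synthesis, SHMT2 and MTHFD2 pass its carbon to folate in mitochondria, and ASNS makes asparagine. All 5 fell in NCI-H1944, with a median of -0.20, and all 5 fell in NCI-H647, with a median of -0.45. Of the rest of the arm, 4 of 11 rose and 6 fell in NCI-H1944, and 8 of 10 tested rose and 1 fell in NCI-H647. This grouping of the arm was made after the values were seen.

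PSAT1 (chr9:78297125-78330093) showed the deepest fall of the 35 in NCI-H647, from 190 and 184 CPM to 110 and 109 (-0.77 ± 0.04, adjusted p = 1.21e-09). In NCI-H1944 it fell from 731 and 719 to 638 and 626 CPM (-0.20 ± 0.02, adjusted p = 1.44e-05). The groups did not overlap in either line, and the fall was deeper in NCI-H647, by -0.60 ± 0.05 (adjusted p = 1.15e-09). PHGDH fell from 226 and 231 to 169 and 174 CPM in NCI-H1944 (-0.42) and from 193 and 181 to 133 and 127 CPM in NCI-H647 (-0.52), and this difference did not pass (adjusted p = 0.0536). ASNS fell by 0.17 in NCI-H1944 and 0.45 in NCI-H647, with a called difference of -0.30 ± 0.06. SHMT2, at -0.22 and -0.29, and MTHFD2, at -0.12 and -0.17, had line differences that did not pass (both -0.08, with standard errors of 0.05 and 0.04).

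TRIB3, a pseudokinase that restrains ATF4, fell by 0.17 in NCI-H1944 (from 370 and 368 to 321 and 335 CPM) and rose by 0.41 in NCI-H647 (from 11.4 and 12.3 to 16.8 and 14.8 CPM). Its rise did not pass without the first MPS1i library of NCI-H647 or with DESeq2. SLC3A2, the heavy chain of amino acid transporters including the cystine carrier, likewise fell by 0.13 in NCI-H1944 and rose by 0.40 in NCI-H647. ATF4, TRIB3 and SLC3A2 were the 3 of 35 genes called in opposite directions in the lines.

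DDIT4, which encodes the mTORC1 inhibitor REDD1, fell in both lines. It went from 512 and 505 to 437 and 467 CPM in NCI-H1944 (-0.17 ± 0.03) and from 638 and 650 to 423 and 389 CPM in NCI-H647 (-0.67 ± 0.04, adjusted p = 1.38e-09). VLDLR, a lipoprotein receptor induced through PERK, rose by 0.53 in NCI-H647 and was at -0.01 (adjusted p = 0.905) in NCI-H1944. CEBPG, a dimer partner of ATF4, fell by 0.10 in NCI-H1944 and was at 0.10 (adjusted p = 0.105) in NCI-H647. NUPR1 fell by 0.16 in NCI-H1944, from 66.0 and 63.4 to 55.1 and 60.7 CPM. The calls of CEBPG and NUPR1 in NCI-H1944 were lost under 8 and 5 of 11 alternatives, among them leaving out any 1 library for CEBPG and the first DMSO or first MPS1i library for NUPR1.

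**Figure D2:**
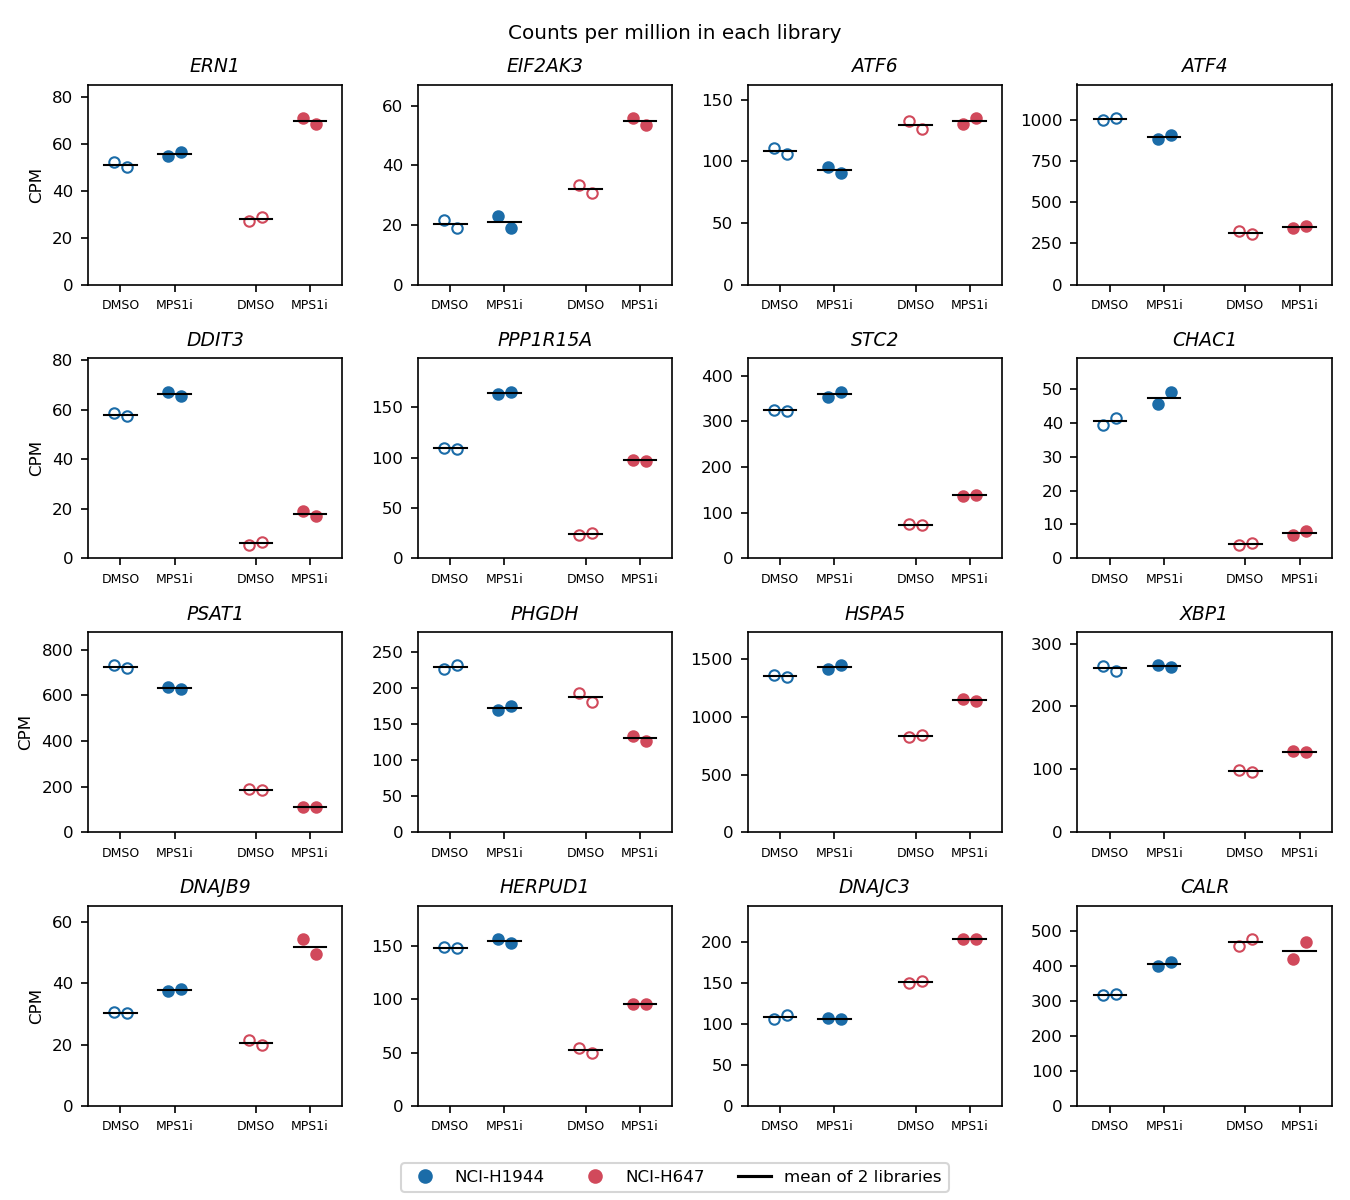
CPM (vertical axes, starting at 0 and scaled per panel) of chosen sensor, ATF4 arm and ER chaperone arm genes in each of the 8 libraries, by line and treatment, with lines at the group means. PPP1R15A, DDIT3 and ERN1 show treated libraries of NCI-H647 far above their controls, and PSAT1 and PHGDH show treated libraries below controls in both lines.

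In the ER chaperone arm, 7 of 16 genes rose in NCI-H1944 and 1 fell, with a median of 0.08 on the log2 scale and a range from -0.12 to 0.35. In NCI-H647, 11 of 16 rose and 0 fell by edgeR's test (0 also at an unadjusted p under 0.05 and 0 by DESeq2), with a median of 0.17 and a range from -0.08 to 1.33. CALR, at -0.08, was called lower in NCI-H647 without the first DMSO library, without the second MPS1i library and under the replicate block.

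The co-chaperone DNAJB9 (ERdj4, chr7:108569867-108574850), a target of XBP1 that returns IRE1 to its resting state, rose most in this arm in NCI-H647. It was at 21.5 and 19.8 CPM after DMSO and 54.4 and 49.4 after MPS1i, a 2.51-fold rise (1.33 ± 0.07, adjusted p = 2.75e-10). In NCI-H1944 it rose from 30.5 and 30.2 to 37.5 and 38.0 CPM (0.31 ± 0.06, adjusted p = 0.000644). Treated and control libraries were apart in both lines, and the difference between the lines was 0.99 ± 0.09 (adjusted p = 1.16e-08).

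HERPUD1 (chr16:56932142-56944864), an ER membrane protein of the degradation machinery, went from 54.0 and 49.8 CPM to 95.6 in both treated libraries of NCI-H647 (0.88 ± 0.05, adjusted p = 3.4e-09). In NCI-H1944 it was at 148 and 147 and then 156 and 152 CPM (0.06 ± 0.04, adjusted p = 0.235). HSPA5 rose in NCI-H647 from 827 and 847 to 1158 and 1142 CPM (0.46 ± 0.03, adjusted p = 4.39e-09), and in NCI-H1944 from 1361 and 1346 to 1417 and 1448 CPM (0.08 ± 0.02, adjusted p = 0.00653). Both rises of this chaperone left the groups apart, but the smaller one was 1.06-fold and was lost without the second DMSO library. The difference was 0.35 ± 0.04 (adjusted p = 8.04e-07).

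XBP1 was at 99.4 and 95.2 CPM after DMSO and 129 and 127 after MPS1i in NCI-H647 (0.40 ± 0.05, adjusted p = 4.45e-06). In NCI-H1944 its groups overlapped, at 265 and 257 and then 265 and 263 CPM (0.02 ± 0.03, adjusted p = 0.733). DNAJC3, the co-chaperone P58IPK, went from 151 and 152 to 204 CPM in both treated libraries of NCI-H647 (0.43 ± 0.04, adjusted p = 3.63e-07) and was at -0.02 (adjusted p = 0.729) in NCI-H1944. HYOU1, a chaperone that exchanges nucleotide on BiP, and MANF, a secreted ER protein, rose by 0.26 and 0.33 in NCI-H647. In NCI-H1944 they were at -0.05 (adjusted p = 0.227) and 0.12 (adjusted p = 0.153).

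The disulfide isomerases PDIA3, PDIA4 and PDIA6 rose by like amounts in the lines, at 0.19, 0.19 and 0.14 in NCI-H1944 and 0.17, 0.12 and 0.14 in NCI-H647. Their line differences were -0.04 ± 0.04, -0.09 ± 0.04 and -0.03 ± 0.04 and did not pass (adjusted p = 0.49, 0.111 and 0.625). HSP90B1 rose by 0.09 and 0.16, and its difference of 0.05 ± 0.05 did not pass either (adjusted p = 0.375). PDIA4 in NCI-H647 did not pass without the first DMSO library, nor HSP90B1 in NCI-H1944 without the first MPS1i library.

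CALR, encoding the lectin chaperone calreticulin, was the single gene of the arm with a called line difference toward NCI-H1944. There it rose from 315 and 319 to 400 and 410 CPM (0.35 ± 0.03, adjusted p = 1.05e-07). In NCI-H647 it was at 458 and 476 after DMSO and 419 and 467 after MPS1i, with overlapping groups (adjusted p = 0.161), and the line difference was -0.45 ± 0.05 (adjusted p = 5.31e-07). SEL1L, the scaffold of the HRD1 ubiquitin ligase, fell by 0.12 in NCI-H1944, a call lost without any 1 of the 4 libraries, and was at 0.07 (adjusted p = 0.183) in NCI-H647. SDF2L1, CRELD2 and EDEM1, a partner of ER chaperones, a secreted ER stress protein and a mannosidase-like degradation factor, were called in neither line. Their changes lay from -0.08 to 0.15. CRELD2 overlaps ALG12, which held 41.4% of its counts in NCI-H647.

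The response differed between the lines for 23 of the 34 genes tested in both. Of all 12887 such genes 40.1% differed, in either direction, and that share was not split by direction. For the 23, the change was more positive in NCI-H647 for 19 and more negative for 4 (DDIT4, ASNS, PSAT1 and CALR). By arm the 23 were 3 of 3 sensors, 12 of 15 ATF4 arm genes and 8 of 16 ER chaperone arm genes. Of the 35, 10 rose in both lines, 6 fell in both and 3 were called in opposite directions. A further 5 were called in NCI-H1944 alone, 8 in NCI-H647 alone and 3 in neither. How many of all genes fall in each of these classes was not counted. A call in a single line is not itself a difference, as MANF shows, with a line difference of 0.19 ± 0.08 (adjusted p = 0.0661). All 6 that fell in both lines were in the ATF4 arm: DDIT4, ASNS, PSAT1, PHGDH, SHMT2 and MTHFD2.

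**Figure D3:**
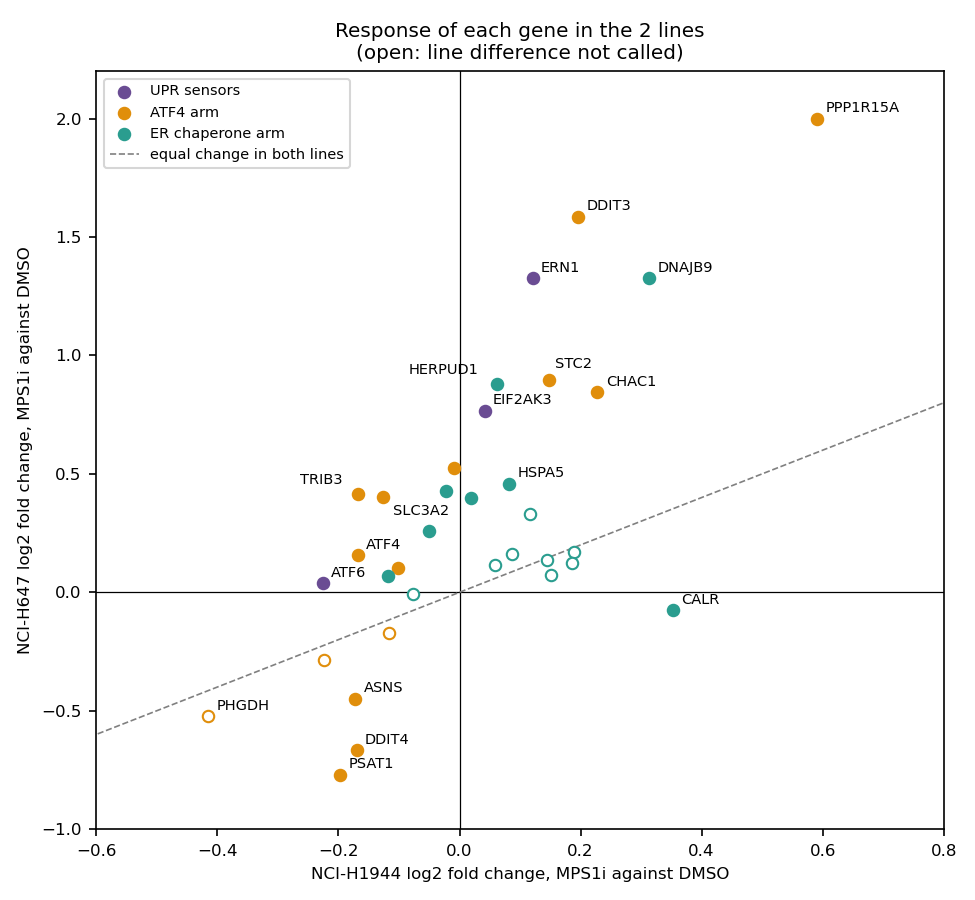
Log2 fold change in NCI-H1944 (horizontal axis) against that in NCI-H647 (vertical axis), 1 point per gene for the 34 genes tested in both lines, coloured by group. Filled points passed the test of the line difference and the dashed line marks equal change; PPP1R15A, DDIT3, ERN1 and DNAJB9 lie far above it and PSAT1, DDIT4 and CALR below it.

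The arms moved apart in each treated library of NCI-H1944. Measured against the mean of the DMSO libraries, the median ATF4 arm gene was at -0.15 and -0.12 on the log2 scale in the MPS1i libraries, and the median ER chaperone arm gene at 0.06 and 0.09. In NCI-H647 these medians were 0.14 and 0.18 for the ATF4 arm and 0.17 in both libraries for the ER arm. The ATF4 arm median minus the ER arm median, taken from the fitted changes, was -0.23 in NCI-H1944 and -0.01 in NCI-H647. These medians are descriptions of small lists and carry no test. The near-equal medians in NCI-H647 hide a wider spread in the ATF4 arm. There 4 called genes rose and 2 fell by an estimated 1.5-fold or more, against 2 and 0 in the ER arm. This cut on estimates was not counted over all genes. When tested against a minimum fold of 1.5, 3 rose and 1 fell in the ATF4 arm, and 2 and 0 in the ER arm. By that test 792 of all 15049 genes were higher and 464 lower.

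The starting levels after DMSO differed between the lines mainly in the ATF4 arm. Of its 15 tested genes, 12 had at least 2-fold higher CPM in NCI-H1944 and 0 in NCI-H647, with a median log2 ratio of 1.96. Of all 12887 genes 22.1% and 23.7% differed so, around a median of -0.02. TRIB3 was 31.1-fold, DDIT3 9.61-fold and CHAC1 9.51-fold higher in NCI-H1944. In the ER chaperone arm 2 of 16 were 2-fold higher in NCI-H1944 and the median was -0.31. Summed over the arm, the ATF4 genes held 6433 and 6417 CPM after DMSO in NCI-H1944 and 2317 and 2287 in NCI-H647. The ER genes held 5060 and 5009 CPM against 4971 and 5062. Kit and line differ together here, so these level ratios are given without a test.

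Of the 17 genes of the eIF2 kinases and eIF2 machinery, that of the kinase PKR (EIF2AK2), which senses double-stranded RNA and is itself interferon-induced, rose most in both lines. It went from 123 and 122 to 423 and 405 CPM in NCI-H1944 (1.75 ± 0.03, adjusted p = 3.77e-16) and from 214 and 223 to 463 and 469 CPM in NCI-H647 (1.09 ± 0.04, adjusted p = 1.51e-12). Treated libraries were far above controls in both lines, and here the rise was larger in NCI-H1944 (difference -0.68 ± 0.05, adjusted p = 6.94e-11). HRI (EIF2AK1) was at -0.13 (adjusted p = 0.0135) and -0.05 (adjusted p = 0.506), and GCN2 (EIF2AK4) at 0.01 (adjusted p = 0.925) and -0.22 (adjusted p = 0.000699).

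Over these 17 genes, 2 rose and 6 fell in NCI-H1944 (11.8% and 35.3%, against 13.6% and 12.4% of all genes). In NCI-H647 6 rose and 9 fell (35.3% and 52.9%, against 27.3% and 27%). PPP1R15B, the constitutive partner of the eIF2 phosphatase, rose by 0.23 and 0.58. EIF2S3, the gamma subunit of eIF2, fell by 0.28 and 0.51, and PPP1CA, a phosphatase catalytic subunit, fell by 0.13 and 0.29. DELE1, the protein that relays mitochondrial stress to HRI, fell by 0.31 and 0.26. OMA1, the protease that cleaves DELE1, fell by 0.78 in NCI-H647 and was at -0.19 (adjusted p = 0.164) in NCI-H1944.

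Of 29 further ATF4 and CHOP targets tested, 4 rose and 12 fell in NCI-H1944 (13.8% and 41.4%, against 13.6% and 12.4% of all genes). In NCI-H647 15 rose and 8 fell (51.7% and 27.6%, against 27.3% and 27%). ATF3, a stress-induced repressor, went from 1.83 and 2.77 to 14.6 and 14.3 CPM in NCI-H647 (2.66 ± 0.17, adjusted p = 4.88e-09) and from 25.7 and 25.3 to 48.1 and 46.4 CPM in NCI-H1944 (0.89 ± 0.06, adjusted p = 5e-09). GDF15, a secreted stress cytokine, rose by 2.78 in NCI-H647, from 2.87 and 1.59 to 15.6 and 15.7 CPM, and by 0.23 in NCI-H1944, from 730 and 760 to 862 and 881 CPM. These low DMSO levels in NCI-H647 make the size of both rises imprecise.

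SESN2, an inhibitor of mTORC1 signalling, and the pro-apoptotic genes TNFRSF10B and BBC3 rose in NCI-H647 by 1.29, 0.71 and 0.78. Several of these genes are also known p53 targets. In NCI-H1944 TNFRSF10B rose by 0.12, and SESN2 and BBC3 were at 0.11 (adjusted p = 0.135) and 0.04 (adjusted p = 0.699). ATF5, a relative of ATF4 under like translational control, fell by 0.33 in NCI-H1944 and rose by 0.30 in NCI-H647. SLC7A11, the cystine transporter that pairs with SLC3A2, fell in both, by 0.23 and 0.59, and ERO1A, the ER oxidase, was at 0.09 (adjusted p = 0.178) and rose by 0.23.

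Of the further ER folding, translocation and degradation genes, 12 of 42 tested rose and 3 fell in NCI-H1944 (28.6% and 7.14%, against 13.6% and 12.4% of all genes). In NCI-H647 32 of 43 rose and 3 fell (74.4% and 6.98%, against 27.3% and 27%). The members with the largest changes in NCI-H647 were SELENOS at 0.89, SYVN1 at 0.83, SELENOK at 0.71 and DNAJB11 at 0.69, followed by DNAJC1 at 0.66 and ERO1B at 0.60. SYVN1 is the ubiquitin ligase HRD1 that SEL1L scaffolds, SELENOS and SELENOK are selenoproteins of ER-associated degradation, and DNAJB11 is a BiP co-chaperone. In NCI-H1944 SELENOS, SELENOK and DNAJB11 rose by 0.19, 0.31 and 0.17, ERO1B fell by 0.25, and SYVN1 and DNAJC1 were at 0.04 (adjusted p = 0.609) and 0.09 (adjusted p = 0.306). ERO1B, a second ER oxidase, was thus called in opposite directions, with a line difference of 0.83 ± 0.15 (adjusted p = 0.000105).

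Genes that process the sensors or act beside them were called at shares near or above those of all genes. In NCI-H1944 1 of 10 tested rose and 3 fell, where all genes gave 13.6% and 12.4%, and in NCI-H647 3 of 11 rose and 4 fell, where all genes gave 27.3% and 27%. TRAF2, the adaptor through which IRE1 signals to JNK, rose by 0.15 and 0.57. CREB3, an ER-bound relative of ATF6, rose by 0.53 in NCI-H647 and was at 0.15 (adjusted p = 0.0696) in NCI-H1944. ATF6B and NFYB, a paralogue of ATF6 and a subunit of the CCAAT-binding factor NF-Y, fell in both lines, ATF6B by 0.13 and 0.31 and NFYB by 0.16 and 0.28. CREB3L2 fell by 0.41 in NCI-H647 and was at -0.07 (adjusted p = 0.163) in NCI-H1944.

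**Figure D4:**
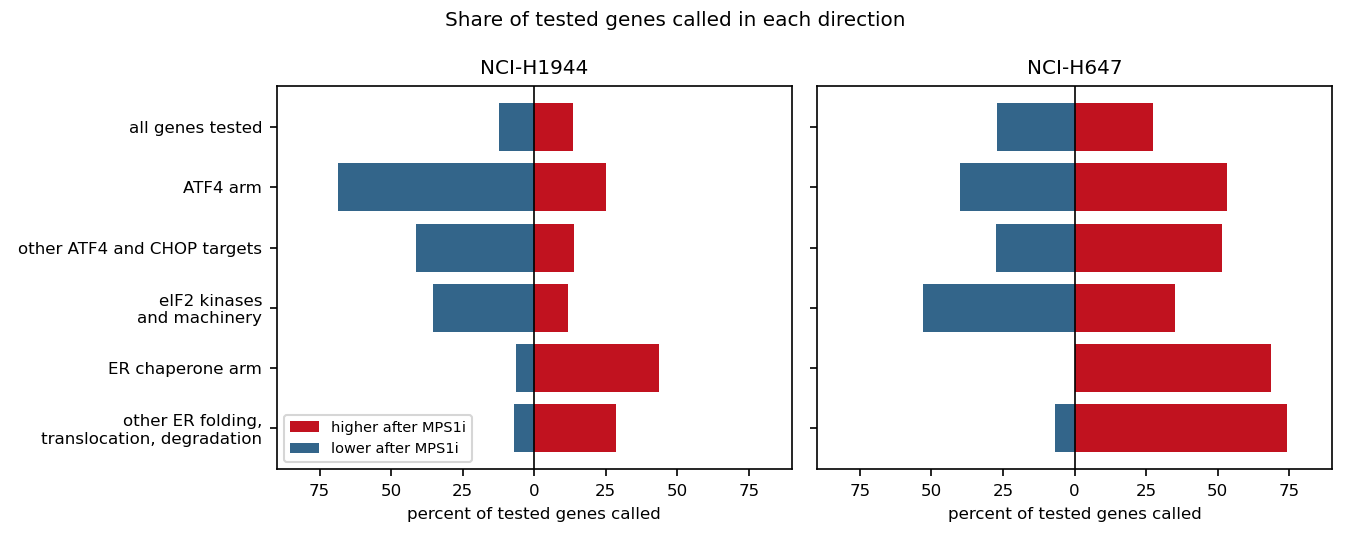
Percent of tested genes (horizontal axis) that rose or fell after MPS1i in each line, for both arms, 3 further pathway lists and all tested genes, with rises to the right of 0 and falls to the left. The ER lists show more rises than falls in both lines, the ATF4 arm mostly falls in NCI-H1944, and all genes stand at 13.6% and 12.4% in NCI-H1944 and at 27.3% and 27% in NCI-H647.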

How the data were processed

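Gene counts from 8 RNA sequencing libraries were used as the authors deposited them: whole-number read counts per gene, without normalization, with a table for each line. Read trimming (cutadapt, Trim Galore, Trimmomatic), alignment (HISAT2, STAR) and counting or assembly (StringTie, featureCounts) on GRCh38 are listed in the submitters' processing notes. Versions, the annotation release, the strand setting and the tool behind each table are not given there. Sample titles gave the line and treatment.

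In R 4.3.3, genes of each line were filtered with edgeR 4.0.16 filterByExpr (minimum count 10, minimum total 15), and scaled by TMM. MPS1i and DMSO were then set against each other with edgeR's quasi-likelihood test, with Benjamini-Hochberg adjustment over all tested genes and a threshold of 0.05. The standard error is the log2 fold change over the square root of the test's F. The line difference is the interaction of line and treatment in a fit to all 8 libraries, over the 12887 genes tested in both lines. The procedure was tested on simulated data. CPM used TMM-scaled library sizes. Totals per library, from 13358514 to 43661342 counts, set the precision.

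The 35 genes, the further lists and the tests were chosen with earlier results of these data known. Genes were named by a rule: ATF4, ATF6, ERN1, EIF2AK3, DDIT3, HSPA5 and XBP1 whatever their outcome, the 5 called genes of each arm with the largest change, and up to 6 per further list beside the named kinases, ATF3, ATF5 and ERO1A. The rest of the 35 are given more briefly.

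Alternatives were RLE and upper-quartile scaling, no filter or a filter of 1 CPM in 2 libraries, DESeq2 1.42.0, a minimum fold of 1.5 (glmTreat), a replicate block and leaving out each library. With a library left out, the lone sample of a group is assumed to vary like the other group. Promoter windows were taken from RefSeq (GRCh38.p14). SHMT2, NUPR1 and PDIA3 had no window in the table used.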

Additional observations from a re-analysis of the deposited data

Results flagged for a closer look

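The change after MPS1i differed between the lines by the interaction term of the joint edgeR fit for 23 of the 34 stress response genes tested in both. The values are the log2 change in NCI-H647 minus that in NCI-H1944. Among the sensors they were 0.24 for ATF6, 1.18 for ERN1 and 0.70 for EIF2AK3. Among the regulators and feedback genes of the ATF4 arm they were 0.30 for ATF4, 1.37 for DDIT3, -0.52 for DDIT4, 0.56 for TRIB3, 1.39 for PPP1R15A and 0.18 for CEBPG. Among its other targets they were -0.30 for ASNS, 0.59 for CHAC1, 0.51 for SLC3A2, -0.60 for PSAT1, 0.51 for VLDLR and 0.72 for STC2. In the ER chaperone arm they were 0.35 for HSPA5, 0.79 for HERPUD1, 0.99 for DNAJB9, 0.43 for DNAJC3, 0.36 for XBP1, 0.29 for HYOU1, -0.45 for CALR and 0.16 for SEL1L. The library kit changed with the line, and the difference was called, in either direction, for 40.1% of all genes tested in both.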

How the results depend on the processing

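Scaling by RLE or upper-quartile factors left every count of arm genes as it was. Without a low-count filter, 2325 genes in place of 4346 were called in NCI-H1944, and the ATF4 minus ER arm median difference in NCI-H647 became 0.11, since NUPR1 then entered. DESeq2 called 5446 genes in place of 8184 in NCI-H647. With a minimum fold of 1.5, 427 and 1256 genes were called in NCI-H1944 and NCI-H647. The arm counts then were 0 in NCI-H1944 for both arms and directions, and in NCI-H647 3 higher and 1 lower in the ATF4 arm and 2 higher in the ER arm. The 1 lower ER arm gene of NCI-H1944, SEL1L, became 0 without a filter and with DESeq2. Leaving out each library in turn, this count was 0 each time in NCI-H1944 and 0 to 1 in NCI-H647, and the arm median difference ran from -0.23 to -0.20 and from -0.083 to 0.034. Deviations of same-numbered libraries from their group means had a correlation of 0.04 in NCI-H1944 and -0.02 in NCI-H647. With 2 libraries per group this is a single value per line, which cannot decide whether the numbers mark pairs. Under the replicate block, 4817 and 8434 genes were called and 1 ER arm gene, CALR, was called lower in NCI-H647. The line difference was called for 21 to 24 genes under its alternatives. That call was lost for CEBPG without the second DMSO or first MPS1i library of NCI-H647, for CHAC1 without its second MPS1i library, and for SEL1L without the second DMSO library of NCI-H1944 or the first DMSO or second MPS1i library of NCI-H647. It was gained for MANF with RLE factors or without the second MPS1i library of NCI-H1944. For PHGDH it was gained under the block or without the first MPS1i library of either line or the second DMSO library of NCI-H647. Sign changed in 17 of 1167 values of single genes, all called in neither fit. VLDLR in NCI-H1944 became 0.00086 with the stricter filter. The others came from leaving out a library, where changes in NCI-H1944 ran from -0.042 to 0.024 for VLDLR, -0.10 to 0.17 for EIF2AK3, -0.015 to 0.13 for CRELD2, -0.056 to 0.0062 for DNAJC3 and -0.0061 to 0.039 for XBP1. In NCI-H647 they ran from -0.0011 to 0.072 for ATF6, -0.065 to 0.031 for EDEM1 and -0.024 to 0.14 for SDF2L1, and line differences from -0.044 to 0.11 for CRELD2, -0.20 to 0.0044 for SDF2L1, -0.060 to 0.0022 for PDIA6 and -0.0061 to 0.093 for EDEM1. Beyond the filter and the minimum fold, whose construction sets those counts, the cause was not tested. NUPR1 had too few counts to be tested in NCI-H647 (0 and 1 after DMSO, 0 and 3 after MPS1i). CHAC1, DDIT3, ATF3, GDF15 and BBC3 are low there after DMSO.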
